A study of Mus musculus with 15 samples.

Results

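The gene segments that encode antibody chains were followed in bulk RNA from the mouse substantia nigra after injection of a virus into 1 side of the midbrain. Members were chosen from measured levels: rows named as immunoglobulin heavy, kappa or lambda variable, diversity, joining or constant segments whose mean level was at least 0.5 over the 6 libraries of miR-181 mice or over the 9 libraries of GFP mice. This took 98 of the 393 such rows with values, among 36265 genes in all. Through both tables came 45 members, through the miR-181 table alone 50, and through the GFP table alone 3. They comprise 45 heavy variable, 28 kappa variable and 2 lambda variable segments, 4 heavy, 5 kappa and 3 lambda joining segments, and 7 heavy, 1 kappa and 3 lambda constant genes. Of the members, 56 lie on chromosome 12 (the heavy chain locus), 34 on chromosome 6 (kappa) and 8 on chromosome 16 (lambda). Of the 75 variable members, 74 are annotated as IG_V genes and 1 as a pseudogene. All 20 heavy diversity rows were listed at 0 in every library, as were Ighe and Iglc4. At the edge of the rule, Igkv5-48 (mean level 0.558) and Igkv4-57 (0.581) lay just inside in the miR-181 table and Igkv6-14 (0.465) just outside, and in the GFP table Ighd (0.538) lay just inside and Ighv8-12 (0.451) just outside, the latter a member through the miR-181 table.

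All animals were C57Bl/6J mice, and tissue was taken 3 weeks after stereotaxic surgery. In the miR-181 set, 3 mice received 1.65e10 vector genomes of AAV-hSYN1-miR-181 on 1 side. In the GFP set the vector was AAV-hSYN1-GFP at 1e10 vector genomes, with injected sides from mice 1 to 4 and uninjected sides from mice 1 to 5; the injected side of mouse 5 was not analysed here. The uninjected side of the same animals is the control in both sets, so no group is free of virus in the other hemisphere. Both vectors use the synapsin promoter, which is active in neurons, while the dissected tissue holds every cell type of the region and its blood. The miR-181 libraries were sequenced as 75-base read pairs and the GFP libraries as 50-base read pairs on another instrument, so transgene, dose and sequencing run cannot be told apart between the sets. Levels below are TPM values (transcripts scaled to a common total) divided by a library size factor; they are per transcript length, so genes can be set side by side within a library, and the sets were normalized separately.

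Antibodies are pairs of heavy and light chains made by cells of the B lineage. In each developing B cell a variable, a diversity and a joining segment are joined at the heavy locus, and a variable and a joining segment at a kappa or lambda locus, so that a B cell and its descendants carry a single recombined pair. The heavy constant gene sets the isotype: IgM and IgD come first, and class switching replaces them with IgG, IgA or IgE. Plasma cells, the secreting end stage, fill much of their RNA with these transcripts, which makes immunoglobulin RNA a sensitive readout of few cells. In healthy brain tissue B lineage cells are scarce and found mostly at its borders.

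The joining segments are printed first because no 31-base word of theirs occurs in the transcripts of any other gene and because the kappa ones were nearly all at 0 on uninjected sides. Sequences are those of GENCODE M21 transcripts on GRCm38, 5′ to 3′ in the transcript's direction. On chromosome 6, plus strand, they span chr6:70722562-70722599 (Igkj1), chr6:70722916-70722954 (Igkj2), chr6:70723223-70723260 (Igkj3), chr6:70723548-70723585 (Igkj4) and chr6:70723886-70723923 (Igkj5). The heavy ones lie on the minus strand at chr12:113429781-113429833 (Ighj1), chr12:113429468-113429515 (Ighj2), chr12:113429085-113429132 (Ighj3) and chr12:113428514-113428567 (Ighj4). Capitals mark the codons of the Phe-Gly-X-Gly motif (kappa) or Trp-Gly-X-Gly motif (heavy) that begins the last framework of the variable domain, searched on the sense strand only. All 4 heavy and 4 of the 5 kappa joining segments hold it. Igkj3, known as nonfunctional in the mouse, has no match.
Igkj1: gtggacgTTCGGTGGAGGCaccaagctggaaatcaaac
Igkj2: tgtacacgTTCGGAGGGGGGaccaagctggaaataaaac
Igkj3: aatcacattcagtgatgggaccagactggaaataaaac
Igkj4: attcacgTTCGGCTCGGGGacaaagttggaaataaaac
Igkj5: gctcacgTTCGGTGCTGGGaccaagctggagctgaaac
Ighj1: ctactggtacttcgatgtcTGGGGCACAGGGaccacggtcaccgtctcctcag
Ighj2: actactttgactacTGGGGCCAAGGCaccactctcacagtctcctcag
Ighj3: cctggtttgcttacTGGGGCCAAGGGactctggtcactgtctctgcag
Ighj4: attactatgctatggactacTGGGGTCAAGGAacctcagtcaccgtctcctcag

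For the variable segments that led single libraries or differed between mice, the last 120 bases of the transcript are shown, which end at the junction. They lie at chr6:69900424-69900543 minus strand (Igkv5-39), chr6:70215838-70215957 plus strand (Igkv6-25), chr6:70260409-70260528 minus strand (Igkv6-23), chr6:69648824-69648943 minus strand (Igkv4-53), chr12:115145487-115145606 minus strand (Ighv1-52), chr12:114583569-114583688 minus strand (Ighv1-9), chr12:115208095-115208214 minus strand (Ighv1-55) and chr12:113625506-113625625 minus strand (Ighv5-6). Capitals mark the Tyr-Tyr-Cys or Tyr-Phe-Cys codons before the junction, searched on the sense strand in the same window. Of all segments with a transcript, 79.8% of 183 heavy variable and 55.6% of 160 kappa variable segments hold that motif there.
Igkv5-39: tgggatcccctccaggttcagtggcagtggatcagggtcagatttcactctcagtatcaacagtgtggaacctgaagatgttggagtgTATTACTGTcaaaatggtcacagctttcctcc
Igkv6-25: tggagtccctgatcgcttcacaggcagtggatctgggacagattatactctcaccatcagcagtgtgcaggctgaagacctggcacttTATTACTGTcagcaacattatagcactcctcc
Igkv6-23: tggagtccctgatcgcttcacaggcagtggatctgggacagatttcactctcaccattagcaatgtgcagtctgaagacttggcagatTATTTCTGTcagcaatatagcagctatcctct
Igkv4-53: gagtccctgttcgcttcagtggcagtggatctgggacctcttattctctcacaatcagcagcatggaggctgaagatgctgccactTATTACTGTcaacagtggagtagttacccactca
Ighv1-52: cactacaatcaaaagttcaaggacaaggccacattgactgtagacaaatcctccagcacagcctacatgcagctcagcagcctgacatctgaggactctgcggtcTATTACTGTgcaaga
Ighv1-9: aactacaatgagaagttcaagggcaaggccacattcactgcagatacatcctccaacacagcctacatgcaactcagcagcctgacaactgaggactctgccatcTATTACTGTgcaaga
Ighv1-55: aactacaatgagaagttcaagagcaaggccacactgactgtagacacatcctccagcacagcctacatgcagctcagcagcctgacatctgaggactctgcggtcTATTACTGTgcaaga
Ighv5-6: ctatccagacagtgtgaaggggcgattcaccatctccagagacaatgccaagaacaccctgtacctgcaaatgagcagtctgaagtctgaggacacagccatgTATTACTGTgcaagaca

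Some of these are close copies. Over the printed window Igkv6-23 and Igkv6-25 differ at 16 bases, Igkv5-39 and Igkv6-25 at 35, and Ighv1-55 and Ighv1-9 at 10. Over whole transcripts, 15.8% of the 31-base words of Igkv5-39 occur in the transcripts of another gene, against 61.4% for Igkv6-25, 55.5% for Igkv6-23, 77.1% for Ighv1-52 (shared most with Ighv1-61), 55.3% for Ighv1-55 and 22.0% for Ighv1-9. The median over members was 47.0% for heavy and 53.5% for kappa variable segments, so levels of single segments in these families are uncertain. No 31-base word of Igkc, Ighm or Igha was shared.

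Across the libraries, 15022 to 15563 genes had a level of at least 1, and all 5 dopamine neuron markers checked were above 0 in every library. The library of the uninjected side of GFP mouse 1 carried pituitary transcripts, with hormone genes summing to 49479 there and 2421 on its injected side. Results of the GFP set are therefore also given without that mouse. In bulk tissue, more cells of a type and more RNA per cell cannot be told apart.

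Igkc, the kappa constant gene (ENSMUSG00000076609, chr6:70726435-70726966), was the highest constant gene in every injected library. On miR-181 injected sides it stood at 749, 4407 and 3239 in mice 1 to 3, against 47.3, 55.7 and 82.3 on their uninjected sides. The GFP mice 1 to 4 had 54.7, 1352, 174 and 424 on their injected sides, against 21.7, 5.60, 16.6, 4.99 and 1.40 in uninjected mice 1 to 5. The groups did not overlap in either set. Fitted log2 change was 5.19 ± 0.62 (SE; limma adjusted p = 0.00841, n = 3 and 3) in the miR-181 set and 5.18 ± 0.93 (limma adjusted p = 0.0238, n = 4 and 5) in the GFP set. With each mouse as its own block the GFP value missed the threshold (limma adjusted p = 0.170). Without GFP mouse 1 the log2 change was 6.34 (limma adjusted p = 0.0115).

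Each mouse's own 2 sides gave Igkc log2 changes of 3.97, 6.29 and 5.29 for miR-181 injection and of 1.32, 7.79, 3.35 and 6.27 for GFP mice 1 to 4. GFP mouse 1 had the smallest change and GFP mouse 2 the largest of all 7. The difference between the sets was 0.50 ± 1.41 (SE; limma adjusted p = 0.904). Its spread between mice was therefore larger than the difference between vectors.

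Ighm (ENSMUSG00000076617, chr12:113418558-113422730), the constant gene of IgM, rose in both sets. Its levels were 154, 421 and 777 on miR-181 injected sides against 34.6, 27.7 and 58.1, and 33.7, 134, 89.8 and 132 on GFP injected sides against 26.1, 23.0, 25.0, 17.3 and 21.4. Injected and uninjected libraries did not overlap in either set. Uninjected levels ran from 27.7 to 58.1 in the miR-181 set and from 17.3 to 26.1 in the GFP set. Log2 changes were 3.26 ± 0.57 (SE; limma adjusted p = 0.0247) and 1.91 ± 0.35 (limma adjusted p = 0.0261). The GFP call was lost with the mouse block (limma adjusted p = 0.146) and was held without GFP mouse 1 (log2 change 2.41, limma adjusted p = 0.000395). Ighd, the IgD gene expressed with IgM on naive B cells, stayed at 0.37 and 0.61 in miR-181 injected mice 1 and 2 and reached 25.5 in mouse 3. Every other library was at or below 0.94.

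Of the 4 IgG genes, 2 rose in the miR-181 set. Ighg2b was at 134, 630 and 95.7 on miR-181 injected sides against 7.62, 7.58 and 1.35, and Ighg2c at 74.6, 118 and 200 against 5.27, 1.77 and 1.98. Both rose, by 5.34 ± 0.83 (SE; limma adjusted p = 0.0186) and 5.25 ± 0.45 (limma adjusted p = 0.00303) in log2. C57BL/6 mice carry Ighg2c as their IgG2a-like gene. Ighg3 was at 1.92, 56.9 and 187 against 0.18, 1.30 and 3.27 (log2 change 4.15 ± 1.52, limma adjusted p = 0.164). Ighg1 was at 0.241 in injected mouse 1, level with its uninjected side at 0.246, and at 1041 and 77.4 in mice 2 and 3 against 10.1 and 2.28. Its change did not pass (3.81 ± 2.47, limma adjusted p = 0.406).

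Igha, the gene of the mucosal isotype IgA, was at 32.6, 492 and 623 on miR-181 injected sides against 1.44, 6.37 and 12.0. These groups did not overlap, and the log2 change of 5.30 ± 1.19 (SE) fell just outside the threshold (limma adjusted p = 0.0503) but within it when each mouse was its own block (limma adjusted p = 0.0102). In GFP mice Igha was at 19.4, 0.773, 32.8 and 33.6 against 4.23, 0, 0.77, 0.70 and 0 (log2 change 3.54 ± 1.00, limma adjusted p = 0.187). GFP mouse 2 was the exception among the injected libraries, and without it the log2 change was 4.65 (limma adjusted p = 0.0171).

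IgG RNA of the GFP set came mostly from 1 mouse. Ighg2b reached 885 on the injected side of mouse 2, against 6.71, 0.22 and 35.1 in mice 1, 3 and 4, and uninjected sides lay between 0.13 and 4.04 (log2 change 4.13 ± 1.65, limma adjusted p = 0.443). Ighg2c stood at 0.70, 6.57, 0.30 and 4.6 against 0.13 to 1.02 (1.45 ± 0.62, limma adjusted p = 0.50). Ighg1 was listed at 11.1 in injected mouse 1, 0 in mice 2 and 3 and 0.45 in mouse 4, with uninjected mouse 1 at 2.10 and the others at 0. Both Ighg1 values of mouse 1 come from the animal whose libraries carried pituitary transcripts.

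**Figure D1:**
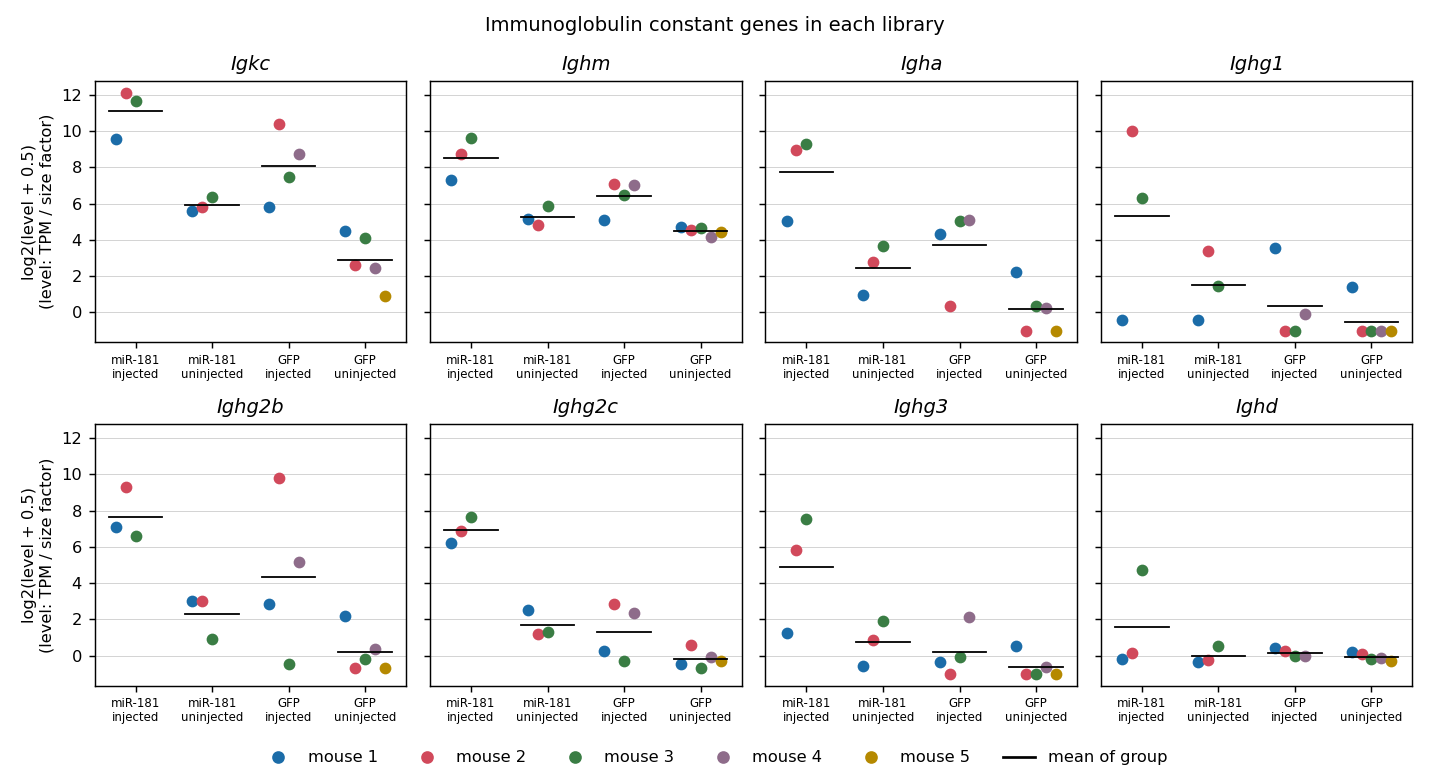
Level of 8 constant genes in each library, as log2(level + 0.5), by group, with points coloured by mouse number (mouse 1 of the miR-181 set and of the GFP set are different animals) and a bar at the group mean of the log2 values. Igkc and Ighm separate the sides in both sets, while Ighg1 on miR-181 injected sides and Ighg2b on GFP injected sides spread over much of the axis.

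Isotype use differed between mice. IgG genes made up 52.9%, 66.9% and 28.2% of the summed heavy constant level on miR-181 injected sides (49.3% ± 19.6, SD, n = 3) and 25.8%, 86.8%, 0.798% and 21% on GFP injected sides (33.6% ± 37.1, SD, n = 4). For the GFP mice the share was 66.6% when levels were summed over the libraries and averaged 15.9% without mouse 2. Within the miR-181 set, mouse 1 used Ighg2b (33.6% of the heavy constant level) and Ighg2c (18.8%) with Ighg1 at 0.0606%. Mouse 2 had 37.7% Ighg1 and 22.8% Ighg2b. Mouse 3 had 31.4% Igha, 10.1% Ighg2c and 39.1% Ighm. Among GFP mice, mouse 2 was 86.2% Ighg2b, whereas mouse 3 was 72.4% Ighm and 26.4% Igha.

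On uninjected sides Ighm was the largest part in every library. Its share was 69.7%, 50.3% and 72.7% in the miR-181 set, and the 5 GFP libraries had 68.2%, 93.0%, 93.8%, 87.4% and 96.5%. It was lower on the injected than on the uninjected side of each of the 7 mice with both sides. The order of isotypes carried over in part: in miR-181 mouse 2, Ighg1 was also the largest IgG gene on the uninjected side at 10.1. Ighg2b led the IgG genes on both sides of miR-181 mouse 1 and GFP mouse 4. The largest IgG gene differed between the sides of miR-181 mouse 3 and GFP mice 1 to 3. In GFP mouse 2 the uninjected side had Ighg2c at 4.14% and Ighg2b at 0.516%.

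**Figure D2:**
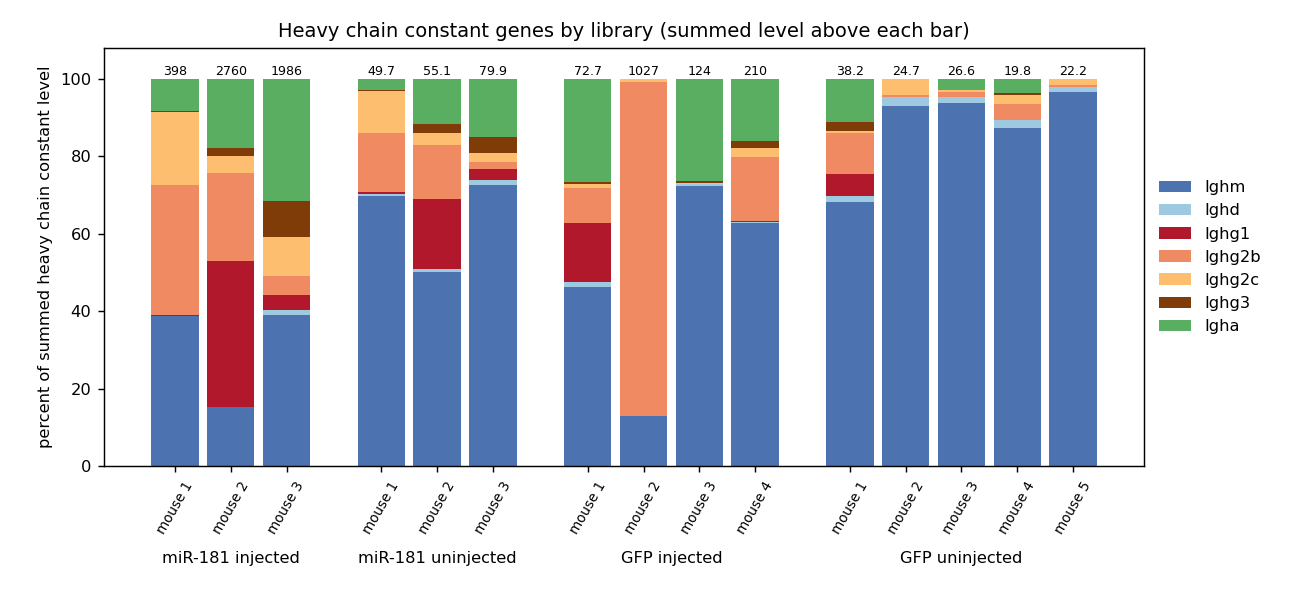
Share of each of 7 heavy constant genes in the summed heavy constant level of each library, in percent, with that sum in level units above the bar. Ighm fills most of each uninjected bar, and each injected bar has its own mixture, from 0.798% IgG in GFP mouse 3 to 86.8% in GFP mouse 2.

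Kappa chains made up nearly all light chain RNA. Igkc was 99.0%, 99.1% and 99.3% of the summed light constant level on miR-181 injected sides (99.1% ± 0.163, SD, n = 3) and 97.6%, 99.5%, 98.1% and 97.7% on GFP injected sides (98.2% ± 0.873, SD, n = 4). Lambda genes were nonetheless among the members that rose. Iglc2, a lambda constant gene, was at 4.79, 13.4 and 10.1 on miR-181 injected sides against 0, 0.42 and 0.23 (log2 change 3.72 ± 0.40, SE, limma adjusted p = 0.00585). Iglc1 was at 1.75, 19.1 and 6.06 and listed at 0 in all 8 uninjected libraries, those of the GFP mice included (limma adjusted p = 0.0324 in the miR-181 set).

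Both lambda variable members rose in the miR-181 set. Iglv1 was at 4.24, 19.0 and 9.71 on miR-181 injected sides against 0, 0.63 and 0 (3.90 ± 0.56, limma adjusted p = 0.0142), and Iglv3 at 5.23, 10.3 and 6.70 against 0.53, 0 and 0 (3.58 ± 0.37, limma adjusted p = 0.00512). In GFP mice Iglv1 was at 1.16, 12.6, 2.79 and 5.90, against 0.464 in uninjected mouse 1 and 0 in the other uninjected libraries (3.02 ± 0.53, limma adjusted p = 0.0210, but 0.156 with the mouse block). Iglc3 was at 0.98, 7.45 and 5.91 against 0, 0.33 and 0.18, with a limma adjusted p of 0.0572, or 0.0381 with the mouse block, 0.0466 with a pseudocount of 0.1 and 0.00135 without injected mouse 1. Among lambda joining segments, Iglj1 was at 4.29, 10.4 and 0 on miR-181 injected sides against 0, 0 and 7.41, and Iglj3 and Iglj3p were above 0 only in injected miR-181 mouse 3, at 14.2 and 4.74.

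Kappa joining segments were close to an on and off pattern. Any of the 5 was above 0 in 2 of 8 uninjected libraries, at 4.26 (Igkj5 in miR-181 mouse 1) and 15.8 (Igkj3 in GFP mouse 1). On miR-181 injected sides Igkj1 stood at 8.57, 15.6 and 33.2, and Igkj5 at 0, 103 and 84.3. Igkj1 to Igkj4 were listed at 0 on every miR-181 uninjected side, which leaves no fold to give, and passed with limma adjusted p of 0.00303, 0.00784, 0.00303 and 0.00225. They reached the mean level needed for this test through their injected levels alone. The filter thus favours such calls, and these adjusted p give no independent support for a rise. GFP mouse 2 stood apart, with 747 for Igkj4, 20.8 for Igkj1 and 0 for the other 3. Since Igkj3 lacks the framework motif in the sequence above, its 8.57, 26.0 and 33.2 in the miR-181 injected libraries are levels of a segment known not to make a functional chain.

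The joining transcripts are short, so that few reads give a high level. Among the 6 kappa and lambda joining segments with a single transcript of 38 bases, which include Igkj1 and Igkj4 but not Igkj3 and Igkj5 with 2 transcripts each, levels were whole multiples of a single step in the 4 libraries with more than 1 of them above 0, with a tolerance of 0.02 steps. The step was 4.29, 5.21 and 4.74 in miR-181 injected mice 1 to 3, so Igkj1 was 2, 3 and 7 steps and Igkj4 was 4, 12 and 11 steps. In GFP injected mouse 2 the step was 20.8, and Igkj4 was 36 steps. Whether a step is a single fragment is not stated in the files.

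For all 4 heavy joining segments every miR-181 injected library was above every uninjected one, and the uninjected levels were mostly above 0. Of the 5 kappa joining segments 4 had no overlap in that set, and in the GFP set 0 of either class did. Over all genes tested, 16% had no overlap in the miR-181 set and 3.29% in the GFP set. The 4 kappa segments were Igkj1 to Igkj4, at 0 on every miR-181 uninjected side, so the choice of members favours this count. Ighj2 was at 25.7, 124 and 44.4 on miR-181 injected sides against 3.45, 6.57 and 0, and had the smallest limma adjusted p of the 4 (0.0519, or 0.0397 with the mouse block and 0.0367 without injected mouse 1). Ighj1 was at 17.5, 62.8 and 36.1 against 16.8, 14.3 and 8.64, above its uninjected level in all 3 mice and by little in mouse 1. In the GFP set Ighj4 reached 556 in injected mouse 2, against 60.9, 0 and 10.9 in the others, the same library in which Igkj4 reached 747. Ighj3 was listed at 0 on all 5 GFP uninjected sides and at 0, 16.5, 0 and 11.3 on the injected ones.

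Among variable segments, Igkv5-39 was the highest kappa segment in 12 of 15 libraries. It stood at 730, 3447 and 2213 on miR-181 injected sides against 30.4, 44.3 and 76.2, and at 14.2, 210, 179 and 287 on GFP injected sides against 1.71, 5.19, 16.1, 3.02 and 3.32. Levels on GFP injected sides overlapped those on uninjected sides through mouse 1 alone. It rose by 5.23 ± 0.58 (SE; limma adjusted p = 0.00657) and 4.52 ± 0.86 (limma adjusted p = 0.0299) in log2, and by 5.22 without GFP mouse 1 (limma adjusted p = 0.00214). Its level equalled 97.4%, 78.2% and 68.3% of Igkc on miR-181 injected sides and 64.4%, 79.7% and 92.6% on the uninjected sides. In GFP injected mice the figure was 25.9%, 15.5%, 103% and 67.8%, and on GFP uninjected sides 7.87%, 92.8%, 96.8%, 60.4% and, in mouse 5 with Igkc at 1.40, 237%. It was lowest on both sides of GFP mouse 1 and on the injected side of GFP mouse 2.

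These animals had other leading segments on their injected sides. In injected GFP mouse 1 Igkv4-53 was highest, at 56.0 beside an Igkc of 54.7, and it was at 13.9 on that animal's uninjected side and 0 in all other GFP libraries. In injected GFP mouse 2 Igkv6-23 stood at 1293 beside an Igkc of 1352, with 0 in the 3 other injected libraries and 0.584 on its own uninjected side. The largest kappa segment took 72.2%, 67.6% and 56.5% of the summed kappa variable level on miR-181 injected sides (65.4% ± 8.04, SD, n = 3) and 65.0%, 84.3%, 80.7% and 73.1% on GFP injected sides (75.8% ± 8.58, SD, n = 4).

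Further kappa segments varied by set and by mouse. Igkv17-121 was at 81.3, 118 and 43.8 on miR-181 injected sides against 7.67, 1.23 and 1.51 (4.63 ± 0.63, limma adjusted p = 0.0124), and in the GFP set above 0 only in injected mice 3 and 4, at 1.61 and 10.5. Igkv17-127, which differs from it at 3 bases of the last 120, was at 28.9, 85.4 and 524 against 3.34, 0.49 and 9.37 (limma adjusted p = 0.0557, or 0.0297 with the mouse block), and in the GFP set above 0 only in uninjected mouse 3, at 0.662. Igkv6-25 was at 19.2, 924 and 797 against 1.07, 10.2 and 12.5, and its change of 5.34 ± 1.56 did not pass (limma adjusted p = 0.102) but did with the mouse block (0.0172) and without injected mouse 1 (0.00478). Its GFP levels were 0, 10.3, 36.6 and 89.9 against 0, 0.56, 0, 2.42 and 0 (limma adjusted p = 0.309, but 0.0273 without mouse 1, with a log2 change of 5.14). Igkv13-84 was at 195 in injected miR-181 mouse 3 and 0 in the other injected miR-181 mice. Igkv5-48 was at 3.35 in injected miR-181 mouse 2 and at 18.1 and 0.52 in injected GFP mice 2 and 4, and 0 elsewhere.

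No single heavy variable segment led most injected libraries. The highest segment took 25.2% (Ighv1-52 at 93.2), 34.4% (Ighv1-9 at 977) and 19.6% (Ighv1-26 at 412) of the heavy variable level in miR-181 injected mice 1 to 3. In GFP injected mice it took 62.4% (Ighv5-6 at 32.9), 85.4% (Ighv1-55 at 745), 45.4% (Ighv1-52 at 46.7) and 26.9% (Ighv1-52 at 52.9). That makes 5 different leading segments in 7 injected libraries. On miR-181 injected sides 25, 50 and 47 heavy variable segments were above 0, against 15, 20 and 24 on uninjected sides. The corresponding GFP counts were 15, 11, 14 and 14 against 5, 5, 6, 4 and 1. Counts of segments above 0 move with the total level and with sequencing depth, which the files do not hold.

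Members of the Ighv1 family dominated, with 32 of the 45 heavy variable members, where the family holds 92 of the 183 heavy variable rows. They carried 76.1%, 92.4% and 81.8% of the heavy variable level on miR-181 injected sides and 97.0%, 92.7% and 97.2% in GFP injected mice 2 to 4. GFP mouse 1 was different, with 25.9% Ighv1 and 66.3% Ighv5. Ighv1-52 rose in the miR-181 set, from 5.67, 0.51 and 0.35 to 93.2, 37.4 and 57.9 (5.08 ± 0.75, SE, limma adjusted p = 0.0156). Ighv1-82 stood at 6.13, 59.0 and 109 against 0.26, 1.73 and 3.34 (limma adjusted p = 0.0693, or 0.0123 with the mouse block). Ighv1-26 rose in the GFP set, from 0, 0.32, 0, 2.08 and 0 to 1.39, 22.3, 19.3 and 52.4 (4.25 ± 0.87, limma adjusted p = 0.0465).

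Others were high in 1 mouse. Ighv1-81 was at 572 in injected miR-181 mouse 2 and listed at 0 in the other 2 injected mice, so its positive fitted change turns negative without that library (-1.40 in log2). Ighv1-9 was at 14.3, 977 and 6.36 against 0, 6.42 and 0, with a limma adjusted p of 0.165, or 0.0246 with the mouse block. Ighv1-85 was at 0, 86.2 and 341, and Ighv1-39 at 1.52, 68.4 and 255 and, among GFP injected mice, at 36.7 in mouse 4 alone. Ighv1-55 was at 0.68, 22.0 and 92.9 in miR-181 injected mice and at 0, 745, 0 and 2.11 in GFP injected mice. Ighv1-81, Ighv1-85, Ighv1-39 and Ighv1-55 did not pass in either set, though all but Ighv1-81 did in the miR-181 set without injected mouse 1.

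**Figure D3:**
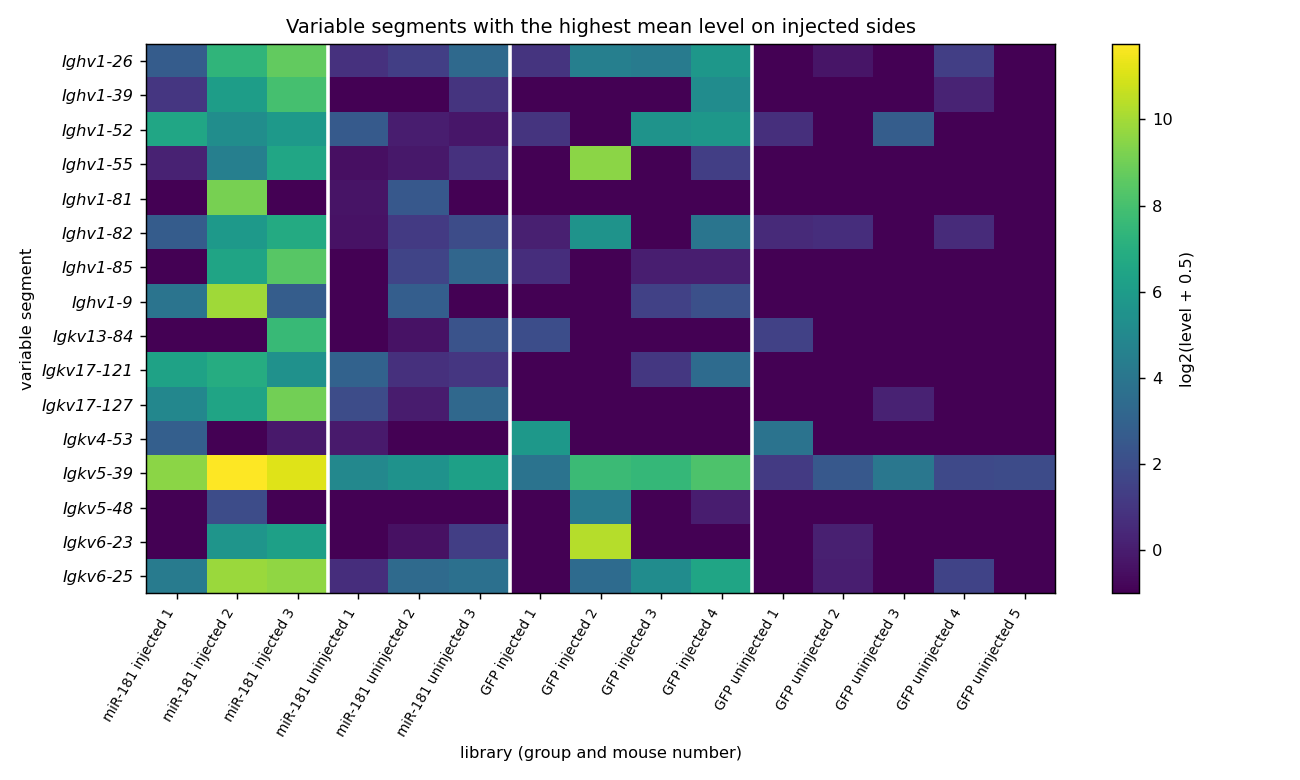
Level of 16 variable segments, those of highest mean on injected sides in either set, in each library as log2(level + 0.5), with white lines between the 4 groups. Igkv5-39 is above 0 in all 15 libraries, while Ighv1-81, Igkv13-84 and Igkv6-23 are bright in 1 or a few libraries, for example 1293 for Igkv6-23 in GFP injected mouse 2.

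The summed variable levels can be set against the constant genes. Kappa variable segments summed to 135%, 116% and 121% of Igkc on miR-181 injected sides and 122%, 112% and 131% on uninjected sides. For the heavy chain, variable segments summed to 92.8%, 103% and 106% of the constant genes on miR-181 injected sides but 44.2%, 52.8% and 57.2% on uninjected sides. The GFP set showed the same split, with 72.6%, 84.9%, 82.8% and 93.7% on injected sides and 32.8%, 16.3%, 48.3%, 22.4% and 5.0% on uninjected sides. The groups did not overlap in either set. Heavy constant levels on uninjected sides thus exceeded the variable levels by more than on injected sides.

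Igkc also moved further than Ighm. The ratio of Igkc to Ighm was 4.85, 10.5 and 4.17 on miR-181 injected sides against 1.37, 2.01 and 1.42, and 1.62, 10.1, 1.93 and 3.22 on GFP injected sides against 0.832, 0.243, 0.664, 0.289 and 0.0655. It was higher on the injected side in all 7 mice. Constant genes together made up 0.115%, 0.718% and 0.527% of all transcripts on miR-181 injected sides, and 0.0127%, 0.246%, 0.0302% and 0.0654% on GFP injected sides.

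Variable segment use on the uninjected side of most animals was closest to that of the same animal's injected side. Overlap was measured as the sum, over all variable segments of heavy and light chains, of the smaller of the 2 libraries' shares of the total variable level, so that 100% means equal use. In the miR-181 set it was 77.7%, 82.6% and 77.0% within mice 1 to 3 and 50.2% to 64.6% between different mice. Leaving out Igkv5-39, the values were 72.9% to 77.3% within and 20.1% to 45.0% between mice. With only the 228 of 346 segments that share at most 50% of their 31-base words, they were 79.9% to 85.3% within and 66.0% to 80.6% between, and the uninjected side of miR-181 mouse 3 was then closer to another mouse (80.6%) than to its own injected side (79.9%). In the GFP set the overlap within mice 1 to 4 was 75.3%, 18.2%, 66.5% and 63.0%, and between mice 7.05% to 62.3%. The own injected side was closest for 3 of 4 GFP uninjected sides, and mouse 2 was the exception. Leaving out Igkv5-39, GFP values were 15.6% to 74.8% within and 0.360% to 37.8% between mice. The 74.8% was that of mouse 1, whose libraries carried pituitary transcripts, and mice 2 to 4 had 15.6%, 35.7% and 60.8%. With the segments that share few words, GFP values were 74.5% to 93.0% within and 13.3% to 78.7% between mice. Mouse 2 was then at 78.7% with its own side, and mouse 4 was the exception. These GFP ranges between mice leave out uninjected mouse 5, which has no injected side here. With the segments that share few words its overlap with injected mouse 3 was 87.4%, above the values within mice 1, 2 and 4. Leaving out Igkv5-39, its overlap with injected mouse 2 was 0.265%, below the range given. Under both restrictions together, GFP mouse 3 had an overlap of 0% with its own side. Injected sides of different mice overlapped by 47.5% to 61.2% in the miR-181 set and by 11.3% to 77.0% in the GFP set, where mice 3 and 4 had the 77.0%, above every value within a GFP mouse. Libraries of a set were prepared together and pooled on the same lanes, and no test was made of this pattern.

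**Figure D4:**
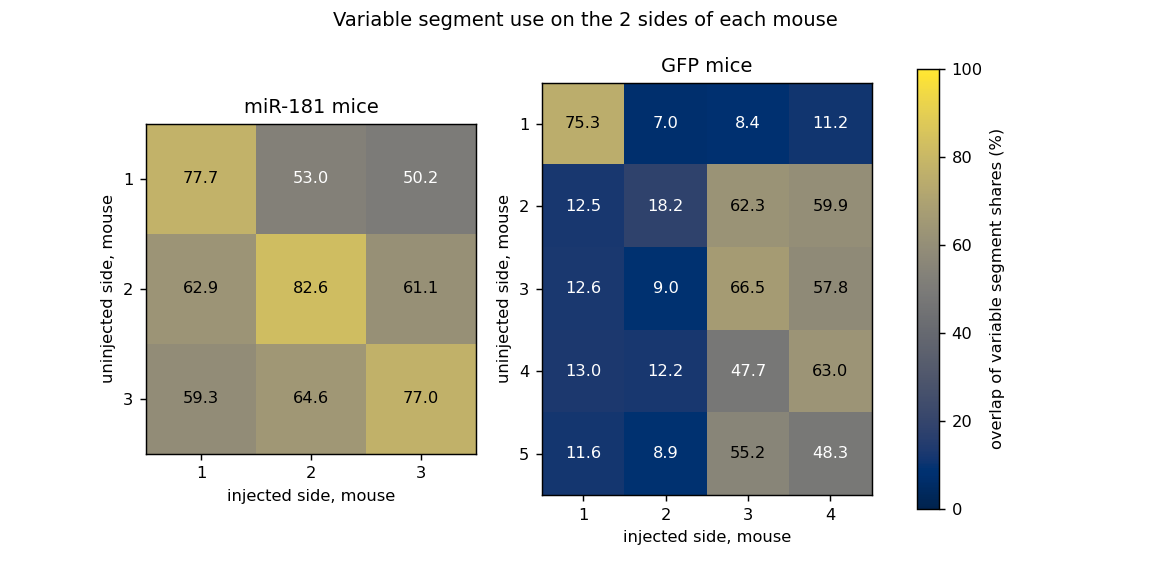
Overlap of variable segment shares, in percent, between each injected side (columns) and each uninjected side (rows), for miR-181 mice on the left and GFP mice on the right. The diagonal holds the 2 sides of the same animal: 77.7%, 82.6% and 77.0% for miR-181, and 75.3%, 18.2%, 66.5% and 63.0% for GFP.

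Segments used by a single mouse show the same in detail. In the miR-181 set 38 variable members had at least 90% of their injected level in 1 mouse, with 6, 22 and 10 of them in mice 1 to 3. Segments below the level rule for members were not counted, so the shares below hold for members only. An example is the only Igkv16 row, at 0.613 in injected miR-181 mouse 2 and 0 in all other libraries. Of these, 21 (55.3%) were above 0 on the same mouse's uninjected side, while 7 of 76 comparisons (9.21%) were above 0 on another mouse's uninjected side. GFP mice gave 8 of 24 (33.3%) and 0 of 72. Of the 8, 5 were among the 10 segments of mouse 1, the animal whose libraries carried pituitary transcripts. GFP mice 2 to 4 gave 1 of 6, 1 of 3 and 1 of 5. Among examples chosen after their values were seen, Igkv4-55 was at 110 and 8.08 on the 2 sides of miR-181 mouse 1, Ighv3-6 at 311 and 1.14 on those of mouse 3, and Ighv5-6 at 32.9 and 8.28 on those of GFP mouse 1. Ighv1-81 was at 572 and 5.13 in miR-181 mouse 2. By contrast Ighv1-55, at 745 in injected GFP mouse 2, was listed at 0 on that animal's uninjected side.

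Over all members, 84 of the 98 had a mean of at least 1 in the miR-181 table and were tested, and 19 of them were called higher and 0 lower (limma, adjusted p under 0.05), where 4.39% of 15453 genes were called higher. All 84 had a positive fitted change, where 50.8% of all genes tested did. An unadjusted limma p under 0.05 was found for 40, where 3631 of the 15453 genes had one. The median log2 change was 2.87, against 0.0035 over all genes tested. In 35 members every injected library was above every uninjected one, against 16% of all genes tested. A segment near 0 on uninjected sides could enter this count only by being high on injected sides, so these shares describe the choice of members and support nothing. The same holds for the GFP table, where 34 were tested, 5 were called higher (1.34% of 15274 genes were) and 33 had a positive change (51.8% of all genes did). Their median was 2.24, and 16 had an unadjusted limma p under 0.05, where 1454 of the 15274 genes had one. Of these members 3 (Ighm, Igkc and Iglv1) did not overlap between sides, against 3.29% of all genes tested. Without GFP mouse 1, 6 members were called, these 5 and Igkv6-25, where 0.925% of all genes tested were called. Listed at 0 in all uninjected libraries were 29 members in the miR-181 set and 63 in the GFP set.

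The remaining calls in the miR-181 set were heavy variable segments outside the rule for named genes, given here after their values were seen. Ighv1-61 stood at 24.2, 112 and 144 against 1.77, 1.28 and 1.75, and Ighv1-72 at 76.2, 144 and 55.5 against 6.23, 4.13 and 1.60. Ighv1-64 (limma adjusted p = 0.0143) and Ighv14-3 (limma adjusted p = 0.0358) were the other two. Of the 31-base words of Ighv1-72, 98.1% occur in another gene, so its level is uncertain.

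Calls rested on single libraries to different degrees. Ighg2c, Igkj1, Igkj3, Igkj4, Igkv5-39, Iglc2 and Iglv3 passed in each of the 6 fits that left out 1 miR-181 library. The joining segments among them were tested only through their injected levels, as given above. Ighm passed in 1 of these 6 fits, the one without injected mouse 1, with a highest limma adjusted p of 0.113. Igkc lost its call without uninjected mouse 1 or 2 (highest limma adjusted p 0.0588), Ighg2b without any of the 3 uninjected libraries (0.0729), and Iglc1 without injected mouse 3 or any uninjected one (0.123). Ighv1-52 lost it without injected mouse 3 or uninjected mouse 2 or 3 (0.0827), Iglv1 without injected mouse 3 or uninjected mouse 1 or 3 (0.0725), Igkj2 without uninjected mouse 1 or 2 (0.0539) and Igkv17-121 without uninjected mouse 2 or 3 (0.0642). Without injected mouse 1, whose Igkc and Ighm were the lowest of the 3, calls were gained instead, among them Igha (limma adjusted p = 0.00292), Ighg3 (0.00604) and Ighg1 (0.0288). In that fit 45 members were called, where 7.84% of all genes tested were. Every call of the GFP set was lost in 5 to 7 of its 9 such fits, with highest limma adjusted p between 0.0825 and 0.153. Ighm, Ighv1-26, Igkc and Igkv5-39 also lost their GFP call when genes of low mean were kept in or when the intensity trend was left out, and Ighm lost its miR-181 call under both.

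In the authors' deposited table, a statistic was given for 36 of the 98 members in the miR-181 set, and 22 had an adjusted p-value under 0.05 with a positive coefficient, where 6.55% of all genes with a statistic did. For the GFP set the authors' deposited table gave a statistic for 4 members, of which 3 passed, where 1.96% of all genes with a statistic did.

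Whether the sets differed was tested on each mouse's own change between sides. Of 73 members tested, 0 were called (limma), and of 15451 genes 0.00647% were. An unadjusted limma p under 0.05 was found for 22 of the members and for 2357 of the 15451 genes. The smallest limma adjusted p was 0.0789, reached by Igkv17-127 and also within the heavy variable class. The change of Igkv17-127 was larger by 5.34 ± 0.78 (SE) in miR-181 mice. Differences in log2 change, miR-181 minus GFP, were 3.82 ± 0.72 for Ighg2c (limma adjusted p = 0.106), 3.43 ± 1.08 for Ighg3 (0.206), 2.06 ± 0.92 for Igha (0.344), 1.36 ± 0.63 for Ighm (0.364) and 1.43 ± 2.29 for Ighg2b (0.820). With 3 and 4 mice these intervals are wide, and they do not show that the vectors act alike. Of the 73, 70 had a positive difference, where 50.3% of all genes tested did. Since 50 members came through the miR-181 table alone and 3 through the GFP table alone, the choice of members favours positive differences. The count of 70 therefore supports nothing about the vectors.

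Other genes of B and plasma cells rose in part. Of a list of 28, 19 were tested in the miR-181 set and 5 were called higher (Jchain, Mzb1, Tnfrsf13b, Cd79b and Cd22), with a median log2 change of 0.63, where 4.39% of all genes tested were called higher. That count fell to 1 without injected mouse 3, uninjected mouse 1 or uninjected mouse 2, to 2 without injected mouse 2 or uninjected mouse 3, and to 1 without the filter on low means, and it was 8 without injected mouse 1. The share called over all genes moved as well, from 0.731% without uninjected mouse 2 to 7.84% without injected mouse 1. In the GFP set 2 of 13 were called (Jchain and Cd22), with a median of 0.10, where 1.34% of all genes tested were called higher. The GFP count was 0 with the mouse block or without injected mouse 4 or uninjected mouse 2 or 5. Jchain, which joins IgM and IgA into polymers, was at 33.5, 139 and 162 on miR-181 injected sides against 2.51, 2.51 and 7.29 (4.47 ± 0.65, limma adjusted p = 0.0147). GFP injected sides had Jchain at 3.02, 35.0, 9.0 and 15.2 against 1.16, 0.75, 1.5, 0.42 and 0.63 (3.12 ± 0.55, limma adjusted p = 0.0214). Mzb1, a chaperone of the plasma cell endoplasmic reticulum, was at 2.46, 14.6 and 10.8 against 0.44, 0.32 and 0.50 (3.11 ± 0.57, limma adjusted p = 0.0293).

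Cd22, an inhibitory receptor of B cells that microglia can also express, was at 4.59, 5.91 and 6.45 on miR-181 injected sides against 0.35, 0.20 and 0.64 (2.79 ± 0.25, limma adjusted p = 0.0032). Cd79b, part of the B cell receptor, rose by 1.80 ± 0.37 (limma adjusted p = 0.0397), and its partner Cd79a had a change of 2.03 ± 0.55 (limma adjusted p = 0.0852). Tnfrsf13b, a receptor for B cell survival factors, rose by 1.41 ± 0.31 (limma adjusted p = 0.0495). Ms4a1, a surface marker of mature B cells, had a mean under 1 and was not tested. Xbp1 and Sdc1, both high in plasma cells but also expressed by other cells, had changes of 0.13 ± 0.18 (limma adjusted p = 0.711) and 0.25 ± 0.27 (limma adjusted p = 0.633). Other genes of the list of B and plasma cell genes had a negative fitted change in the miR-181 set, and 0 were called lower. Pax5 was at 12.8, 8.03 and 14.8 against 18.5, 12.1 and 19.0 (-0.48 ± 0.25, limma adjusted p = 0.315). Cr2 had -0.56 ± 0.49 (limma adjusted p = 0.545) and Fkbp11 -0.29 ± 0.12 (limma adjusted p = 0.211). Txndc5 and Pou2f2 were near no change, at -0.015 and -0.017. The difference between the sets was called for 0 of 16 tested genes of the list (limma, 5 with an unadjusted p under 0.05, where 2357 of 15451 genes had one).

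**Figure D5:**
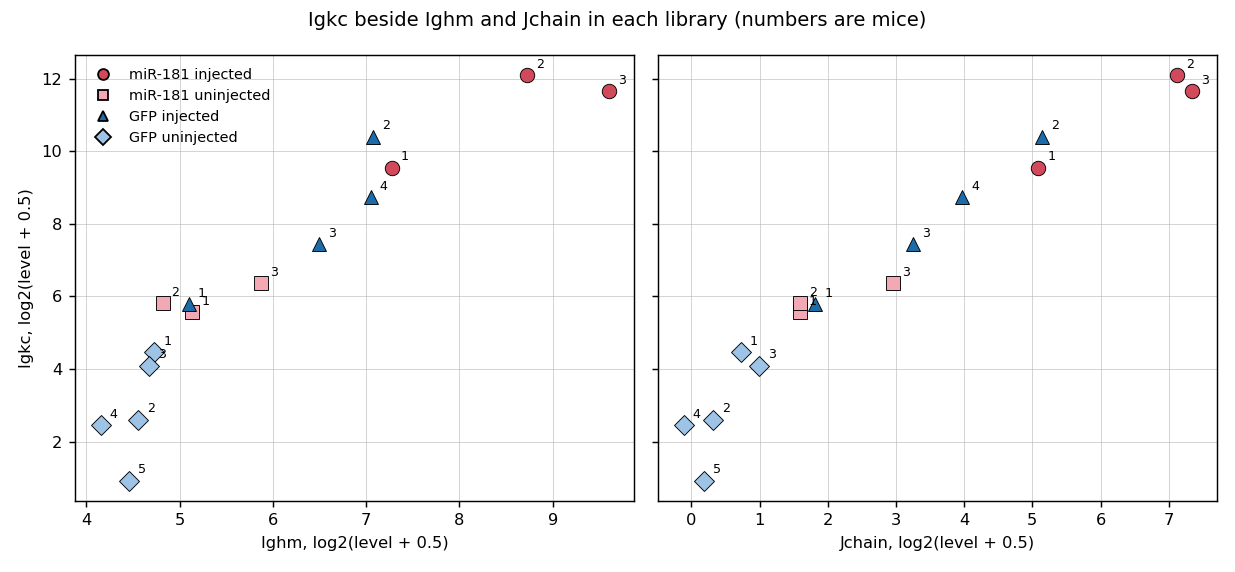
Igkc plotted against Ighm (left) and Jchain (right) in all 15 libraries, each as log2(level + 0.5), with symbols for the 4 groups and mouse numbers beside the points; the sets were normalized separately. Libraries high in Igkc are high in Jchain, from 1.40 and 0.63 in GFP uninjected mouse 5 to 4407 and 139 in miR-181 injected mouse 2.

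Genes of immunoglobulin receptors and of B cell attraction and survival rose beside the segments in part. Of 6 tested immunoglobulin receptor genes, 5 were called higher in each set (Fcgr1, Fcgr2b, Fcgr3, Fcgr4 and Fcer1g, which bind IgG or carry the signal), and Fcgrt, the recycling receptor, was not. Over all genes tested, 4.39% were called higher in the miR-181 set and 1.34% in the GFP set. Of 5 tested genes of B cell attraction and survival, 3 were called in the miR-181 set and 0 in the GFP set (limma). In the GFP set 3 had an unadjusted limma p under 0.05, where 1454 of 15274 genes had one. Cxcl13, the chemokine that draws B cells through Cxcr5, was at 5.18, 17.8 and 16.7 against 0.80, 0.51 and 1.08 in the miR-181 set (3.25 ± 0.45, limma adjusted p = 0.0134). Cxcr4 (limma adjusted p = 0.0303) and Tnfsf13b, which encodes the survival factor BAFF (0.0177), were the others.

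Marker lists of other cells were measured beside the segments. T cell genes moved with the injected side: 6 of 9 tested were called in the miR-181 set and 1 of 4 in the GFP set, with summed levels of 44.4 to 158 against 14.0 to 19.4, and of 30.8 to 35.8 against 12.2 to 21. Red blood cell genes, by contrast, were not called in either set (0 of 5 each with limma, and 0 at an unadjusted p under 0.05), with summed levels of 677 to 1179 on miR-181 injected sides against 713 to 1170, and 712 to 984 on GFP injected sides against 644 to 916. Meningeal genes were called in 0 of 4 in each set (limma, 0 at an unadjusted p under 0.05), with sums of 43.2 to 84.4 against 47.0 to 79.4 and of 31.3 to 45.9 against 23.9 to 56.0. Neutrophil genes summed to at most 1.61 in any library. The part of T cells or of other infiltrating cells in the antibody levels was not tested.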

How the data were processed

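Bulk RNA from substantia nigra was sequenced in 15 libraries of 8 mice (poly(A)-selected, stranded, per the labels' protocols). Transcripts were quantified with kallisto 0.43.1 and tested with sleuth 0.30.0 on GRCm38, per the submitters' processing notes. The deposited values were taken as signal: TPM divided by a size factor, a unit inferred from library sums of 970505 to 1040288, so depth is unknown and no counting interval can be given. The authors' deposited tables also hold sleuth coefficients on a natural log scale and p-values, adjusted and raw. Variable, joining and constant segments are separate transcripts there, so a read spanning a junction of segments matches neither in full, and very short transcripts turn few reads into high levels.

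Of 36660 rows with values, 395 repeats of a gene were left out. The members and all gene lists were chosen with earlier results of these data known. Injected and uninjected sides were compared with limma 3.58.1 (R 4.3.3) with an intensity trend, two-sided, on log2(value + 0.5), for genes of mean at least 1, with Benjamini-Hochberg adjustment over all genes and calls at 0.05. Fold changes on that scale understate changes of low genes. The difference between the sets was fitted on each mouse's own change. Overlaps, shares and figures used Python 3.11.15, numpy 2.4.6, pandas 2.3.3 and matplotlib 3.10.9. The code was tested on simulated data.

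Sides of an animal are paired by the labels. Their deviations from the group means correlated at 0.183, 0.140 and 0.257 for the miR-181 pairs and at 0.192, 0.0947, 0.0177 and 0.122 for the GFP pairs. Named genes were all constant genes above 0, all joining and lambda members, the 5 heavy and 5 kappa variable segments of highest injected mean in each set, and named B and plasma cell genes. Alternatives changed the pseudocount, filter, centring, trend, block, member rule and libraries.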

Additional observations from a re-analysis of the deposited data

Results flagged for a closer look

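In 17 of the 68 groups of 4 or 5 libraries examined, 1 library lay far from the others by Dixon's criterion. All are in the GFP set, since groups of 3 were not examined. The usual rate of about 1 of 20 groups by chance does not apply here. A segment above 0 in a single library of its group meets the criterion whatever its level, as in many of these groups. The groups also share libraries, so the count does not measure an excess over chance. On injected sides, Igha was low in mouse 2 at 0.773, where the next library had 19.4, and Igkv5-39 was low in mouse 1 at 14.2, where the next had 179. High single libraries were Igkv6-23 at 1293 in mouse 2, Igkv4-53 at 56.0 and Igkv13-84 at 3.54 in mouse 1, and Ighv1-39 at 36.7 in mouse 4.

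On uninjected sides, mouse 1 was the far library for Ighg1 (2.10), Ighg3 (0.929, with the next at 0.142), Igkj3 (15.8), Igkv13-84 (2.28), Igkv4-53 (13.9) and Iglv1 (0.464). This is the library with pituitary transcripts. Single libraries above 0 were also seen for Ighv1-39 in mouse 4 (0.694), Igkv17-127 in mouse 3 (0.662), Igkv6-23 in mouse 2 (0.584) and Iglc3 in mouse 5 (0.358). The kappa share of light constant levels was 70.3% in uninjected mouse 5, where the next library had 97.8% and where Igkc itself was at 1.40. Igkv4-53, Igkv6-23, Igkv13-84 and Ighv1-39 stood out on both sides of 1 and the same mouse.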

How the results depend on the processing

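With each mouse as a replicate block, 26 members were called in the miR-181 set, among them all 19 called without it, and in the GFP set 2 members (Ighv1-26 and Igkv5-39) and 0 B and plasma cell genes (limma). Over all genes tested, the block gave 3.69% called in the miR-181 set and 0.870% in the GFP set, against 4.39% and 1.34% without it. Without the filter on low means, 1 B and plasma cell gene was called in the miR-181 set, 1 member in the GFP set and 1 B and plasma cell gene there, where 1.06% (miR-181) and 0.714% (GFP) of all genes were. Without the intensity trend the counts were 2 B and plasma cell genes (miR-181) and 1 member (GFP), where 2.56% and 1.28% of all genes were called. Counted over variable segments, the kappa share on miR-181 injected sides was 99.3%. The cause of these shifts was not tested.

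Leaving out 1 library at a time gave 9 to 45 members and 1 to 8 B and plasma cell genes in the miR-181 set, and 0 to 6 members and 0 to 2 B and plasma cell genes in the GFP set. The highest member counts came without injected mouse 1 of either set, where 7.84% (miR-181) and 0.806% (GFP) of all genes tested were called. The lowest came without uninjected mouse 2 in the miR-181 set (0.731% of all genes) and without uninjected mouse 2 or 5 in the GFP set (0.865% and 0.706%). For the difference between the sets, leaving out 1 library gave 0 to 6 members and 0 B and plasma cell genes. The 6 came without injected miR-181 mouse 1, where 1.98% of all genes tested were called. The IgG share ranged over 40.6% to 59.9% (miR-181) and 15.9% to 44.5% (GFP).

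Changes of sign affected values that had not passed. Without injected mouse 2, Ighv1-81 went to -1.40 in the miR-181 set (range to 3.68), and without injected mouse 1, Igkv4-53 went to -0.97 in the GFP set (range to 1.71). Differences between the sets changed sign for 9 segments: with pseudocount 0.1, Ighv1-26 was -0.84 and Ighv1-55 was -0.046. Leaving out single libraries, they ranged from -0.87 to 0.74 for Ighj1 (0.42 without injected miR-181 mouse 1), -0.21 to 2.66 for Ighj3, -4.64 to 0.24 for Ighj4, -0.47 to 1.58 for Ighv1-26, -0.61 to 2.90 for Ighv1-55, -0.62 to 1.54 for Igkc, -0.048 to 5.42 for Igkj5, -0.055 to 1.41 for Igkv4-53 and -0.10 to 3.67 for Igkv6-23. Of 312 other values recomputed for the miR-181 set with all libraries, 293 kept both their sign and their side of the threshold. So did 235 of 249 for the GFP set, where the fit without mouse 1 is included, and 278 of 280 for the difference. The 2 others of the difference changed sign only. With 1 library left out, 189 of 230 values kept both in the miR-181 set, 208 of 243 in the GFP set and 253 of 273 for the difference. No depth is held in the files, so levels near 0 carry an unknown counting error.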
